A study of Mus musculus with 2 samples.

Results

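Serotonin, ATP and adenosine act on sympathetic neurons and on the cells around them through ligand-gated channels and G-protein-coupled receptors. The 10 genes described here encode such receptors: the serotonin-gated channel subunits Htr3a and Htr3b, the ATP-gated channel subunits P2rx2, P2rx4 and P2rx7, the nucleotide receptors P2ry1 and P2ry12, and the adenosine receptors Adora1, Adora2a and Adora2b. They were chosen by name, not by their measured values, but with earlier results of these data known. All 10 were found among the 32183 genes in the files. The data are single-cell RNA-seq counts of 2 libraries, called library 1 and library 2, from celiac and superior mesenteric ganglia of mice, the prevertebral sympathetic ganglia that innervate the gut and other abdominal organs. For the whole series 20 mice were used, 7 to 8 weeks old and as many male as female. Both libraries belong to the same group. The labels name no treatment and no genetic change, and the sources used here do not say which mice went into which library. There is therefore no comparison of conditions, and the comparisons below are between cell classes within these libraries.

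A homomeric 5-HT3 channel forms from the Htr3a product alone, and Htr3b joins it in heteromeric channels but does not form a working channel by itself. Extracellular ATP is released by nerve terminals and by damaged or stretched cells and opens P2X cation channels, while P2Y receptors answer to ATP, ADP or other nucleotides through G proteins. Enzymes on the cell surface break ATP down to adenosine, whose Adora1 receptor couples to inhibitory G proteins and whose Adora2a and Adora2b receptors couple to stimulatory ones.

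Positions are those of GENCODE release M21 on GRCm38, the mm10 build. Htr3a and Htr3b are neighbours, and so are P2rx7 and P2rx4. Htr3a (chr9:48899213-48911099, minus strand) and Htr3b (chr9:48935008-48964990, minus strand) lie 23908 bases apart with no gene between them. P2rx7 (chr5:122643911-122691432, plus strand) and P2rx4 (chr5:122707544-122729738, plus strand) lie 16111 bases apart with 1 non-coding gene between them. P2ry12 (chr3:59216272-59262871, minus strand) and P2ry1 (chr3:61002795-61008982, plus strand) share a chromosome at a distance of 1739923 bases, with 8 protein-coding genes among 33 between them. P2rx2 lies at chr5:110339812-110343212 on the minus strand, Adora1 at chr1:134199223-134235431 on the minus strand, Adora2a at chr10:75316877-75334784 on the plus strand and Adora2b at chr11:62248984-62266453 on the plus strand.

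The libraries held 94521010 and 95235439 unique molecular identifiers (UMIs, each a counted RNA molecule), with a median of 6483 and 6498 UMIs per barcode. Of the cell barcodes, 64 occurred in both libraries. After removal of 561 and 629 predicted doublets 12033 and 11650 cells remained. Each cell's UMIs were divided at random into 2 parts, 1 used to cluster the cells and the other, called held-out here, to measure the genes. Neither the 10 receptor genes nor the related genes described below took part in clustering or in naming, other than Slc18a2, which is also a neuron marker and served in naming. Cells were placed in 15 classes from marker genes: neurons (365 and 345 cells), satellite glia (1182 and 1156), non-myelinating (1696 and 1608) and myelinating (196 and 216) Schwann cells, an intermediate glial class (1811 and 1698) with markers of the satellite and the Schwann lists, fibroblasts (2273 and 2311), perineurial or epineurial cells (737 and 642), blood (981 and 881) and lymphatic (30 and 28) endothelial cells, pericytes (273 and 289), smooth muscle cells (339 and 324), macrophages (1138 and 1115), dendritic cells (329 and 387), mast cells (62 and 64) and T cells (51 and 58). All class names are the outcome of this re-clustering and mean "like" that type. Levels are held-out UMIs per 1000000 held-out UMIs of a class in a library (CPM). This is a share of UMIs from the 3′ ends of transcripts and needs no correction for transcript length. Each test compared a class with all other kept cells in the same 2 libraries with edgeR, and p-values are adjusted over all genes tested. For neurons, the other cells left out the neuron-like droplets that were set aside from the neuron class, described below. Fitted fold changes use edgeR's normalization factors and so differ somewhat from the ratio of the CPM values. With 1 value per class and library, the p-values rest only on counting error and on the spread between these libraries, which may be technical. That spread is moderated over all genes. Counting intervals and the limits that a count of 0 allows cover counting error only.

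Htr3a and Htr3b were highest in neurons. Htr3a stood at 104 CPM in the neurons of library 1 and at 96.4 CPM in those of library 2. In all cells that were not neuron-like it stood at 22.3 and 22.2 CPM. Htr3b stood at 80.4 and 80.3 CPM against 8.95 and 9.33 CPM. Both libraries thus placed both subunits higher in neurons, with no overlap between neurons and other cells. By edgeR the log2 fold changes were 1.99 (SE 0.102, adjusted p = 7.92e-13) for Htr3a and 2.95 (SE 0.124, adjusted p = 3.21e-14) for Htr3b. In this comparison 70.6% of the 18177 tested genes passed, 31.2% as higher and 39.4% as lower, so that a pass by itself is common. The order of mean levels below neurons was T cells, myelinating Schwann cells and pericytes for Htr3a, and myelinating Schwann cells, pericytes and T cells for Htr3b. T cells gave 80.9 and 29.2 CPM of Htr3a from 10 and 5 UMIs, so these neighbours in the order were not separated. Over the 16 comparisons Htr3a was higher in 1, lower in 4 and did not pass in 11, and Htr3b was higher in 1, lower in 6 and did not pass in 9.

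**Figure D1:**
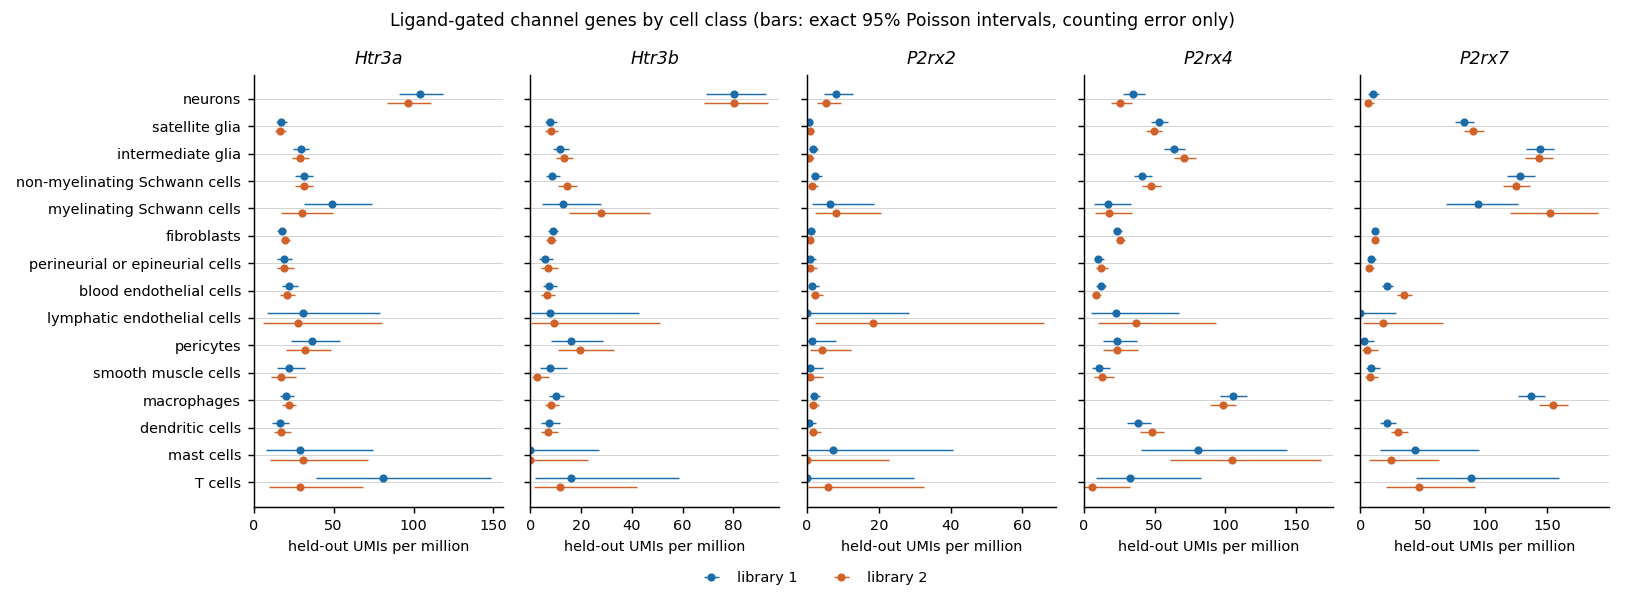
Levels of the ion channel subunits Htr3a, Htr3b, P2rx2, P2rx4 and P2rx7 (horizontal axis, held-out CPM) in each cell class (vertical axis), 1 symbol per library with its exact counting interval. Htr3a and Htr3b lie highest in neurons. P2rx4 lies highest in macrophages, mast cells and intermediate glia, and P2rx7 in macrophages and glia. P2rx2 stays below the level of 10 in every class with more than 100 cells per library.

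Neurons of 2 transcriptional types differed in both 5-HT3 subunits. One type was rich in Shox2, a homeobox transcription factor gene, and the other in Rxfp1, the relaxin receptor gene. Rxfp1-rich neurons (84 and 76 cells) held 97.7 and 88.4 CPM of Htr3a from 96 and 77 UMIs. Shox2-rich neurons (43 and 46 cells) held 27.4 and 10.3 CPM from 13 and 5 UMIs. Htr3b reached 107 and 127 CPM in the Rxfp1-rich type, against 12.7 and 24.7 CPM in the other. Every Rxfp1-rich value was above every Shox2-rich value for each subunit. Between the types edgeR put Htr3a at −2.35 in log2 (Shox2-rich over Rxfp1-rich, SE 0.332, adjusted p = 1.15e-06) and Htr3b at −2.68 (SE 0.317, adjusted p = 2.42e-08). Only 8.62% of the 8740 genes tested between the neuron types passed, 3.96% as higher and 4.66% as lower in Shox2-rich neurons. P2rx4 was the other member tested here, with 33.7 and 32.9 CPM in Shox2-rich and 37.7 and 27.5 CPM in Rxfp1-rich neurons. Its groups overlapped (log2 fold change −0.01, SE 0.333, adjusted p = 0.997 by edgeR). The remaining 7 members had too few UMIs to be tested between the types. When every cell was thinned to 1000 UMIs no member had enough UMIs left to be tested between the types.

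Within Rxfp1-rich neurons the subunits were often found in the same cell. In library 1, 47 of 84 cells held a UMI of Htr3a, 49 held one of Htr3b and 34 held both. In library 2 the numbers were 37, 39 and 24 of 76 cells. Whether this is more than the separate shares of the subunits and the depth of the cells would give was not tested. Shox2-rich cells with a UMI numbered 5 of 43 and 4 of 46 for Htr3a, 5 and 7 for Htr3b, and 2 and 1 for both. Blood endothelial cells, set beside them as a non-neuronal class, held an Htr3a UMI in 8.4% and 8.6% of cells. At a depth of 1000 UMIs the Htr3a shares fell to 10.7% and 3.9% of Rxfp1-rich neurons, while endothelial cells had 2.7% and 3.2%. At that depth the library 2 value of the neurons could not be told from the endothelial one by its exact 95% interval, 0.82% to 11.1%.

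Htr3a was highest among neurons outside these types. A cluster of 373 such cells with few UMIs per cell (median 2743) had 343 and 348 CPM of Htr3a but 119 and 109 CPM of Htr3b. Its level of Malat1, a transcript that stays in the nucleus, was 6766 and 8954 CPM, against 84845 and 85605 CPM in Rxfp1-rich neurons. A smaller cluster of 88 cells had 52.3 and 41.2 CPM of Htr3a, 70.4 and 26.7 CPM of Htr3b, and 63386 and 65583 CPM of Malat1. A further 415 and 393 neuron-like droplets of very low UMI number were kept out of the neurons, and their largest cluster held 192 and 210.2 CPM of Htr3a and 3994 and 3727 CPM of Malat1. That cluster and the one of 373 cells thus had more Htr3a and far less Malat1 than the Shox2-rich and Rxfp1-rich neurons, and the part of RNA quality in the level of Htr3a was not tested. With every neuron-like droplet counted as a neuron, all 10 members kept their direction and their side of the threshold.

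**Figure D2:**
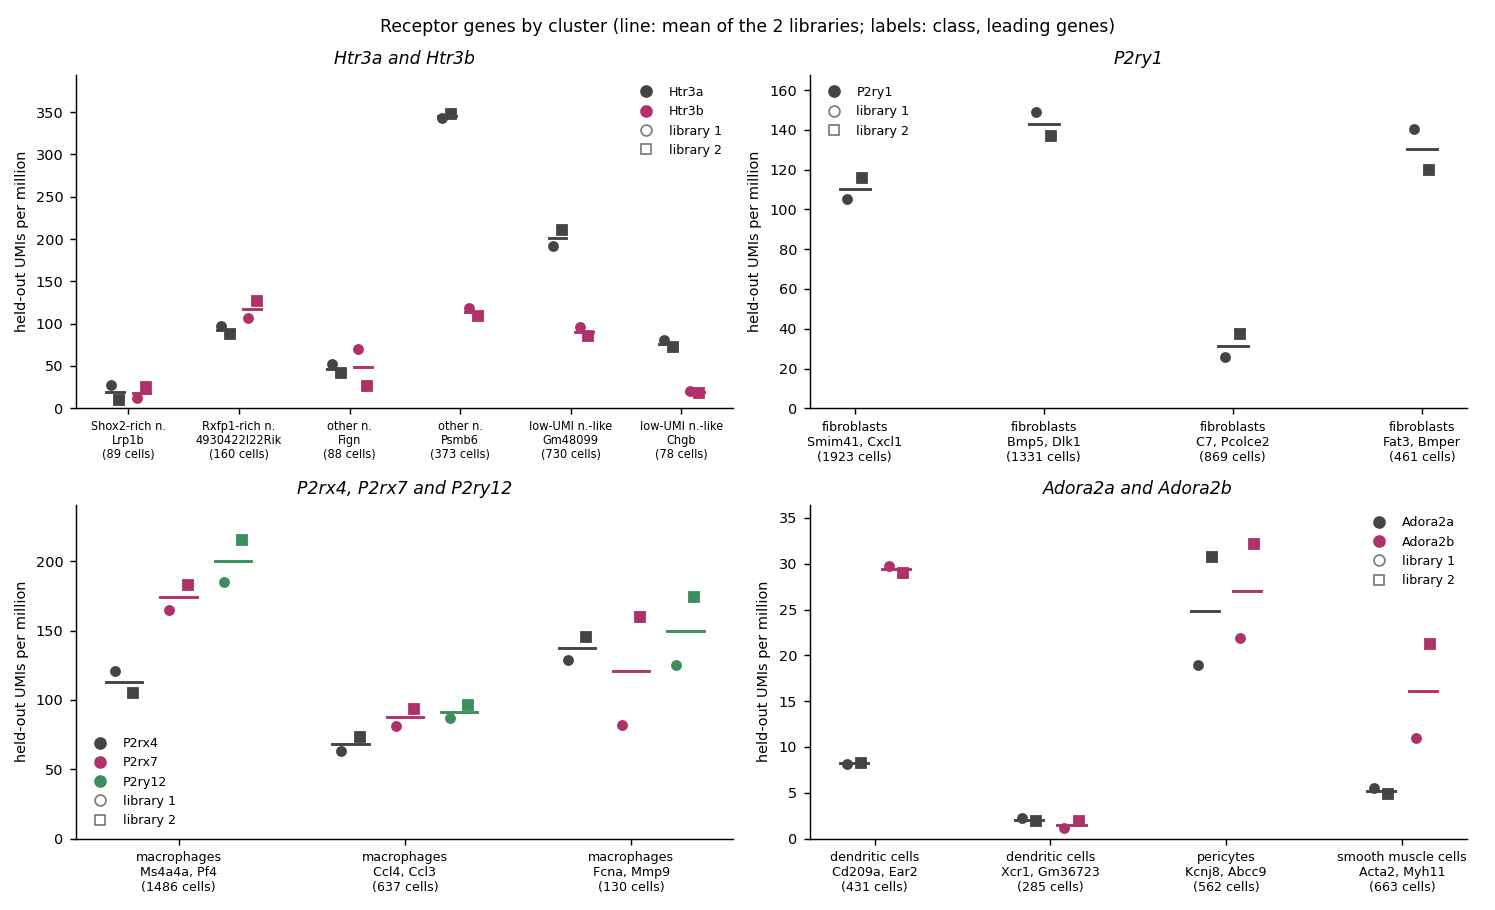
Levels of members (vertical axis, CPM of held-out UMIs) in the clusters within a class (horizontal axis, with leading genes and cell numbers), 1 symbol per library and a line at their mean. The neuron cluster of 373 cells stands above the other neuron clusters for Htr3a, the fibroblast cluster with C7 and Pcolce2 among its leading genes stands lowest of the fibroblast clusters for P2ry1, and P2ry12 is present in every macrophage cluster.

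Much of the 5-HT3 RNA was counted outside neurons, at a level that moved with RNA typical of noradrenergic neurons. All neuron-like droplets together held 30.3% and 28.9% of the held-out Htr3a UMIs and 42.4% and 37.2% of those of Htr3b. All 11 of 11 neuron markers were detected in each of the 15 classes, and their summed level was 1081 to 3027 CPM in non-neuronal classes against 20514 to 21349 CPM in Shox2-rich and Rxfp1-rich neurons. Htr3a was set against Th and Dbh, genes of noradrenaline synthesis. Per 100 UMIs of Th and Dbh, satellite glia held 7.72 and 7.12 UMIs of Htr3a, macrophages 7.09 and 7.23, blood endothelial cells 7.43 and 7.28, fibroblasts 6.90 and 7.83 and non-myelinating Schwann cells 7.62 and 7.97. These classes shared nearly the same ratio. The low-UMI neuron-like droplets were at 9.84 and 8.76, Rxfp1-rich neurons at 13.9 and 15.6 and Shox2-rich neurons at 2.68 and 1.44. No level of Htr3a or Htr3b outside neurons is read here as expression by those cells, and the part of free RNA in it was not tested.

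**Figure D3:**
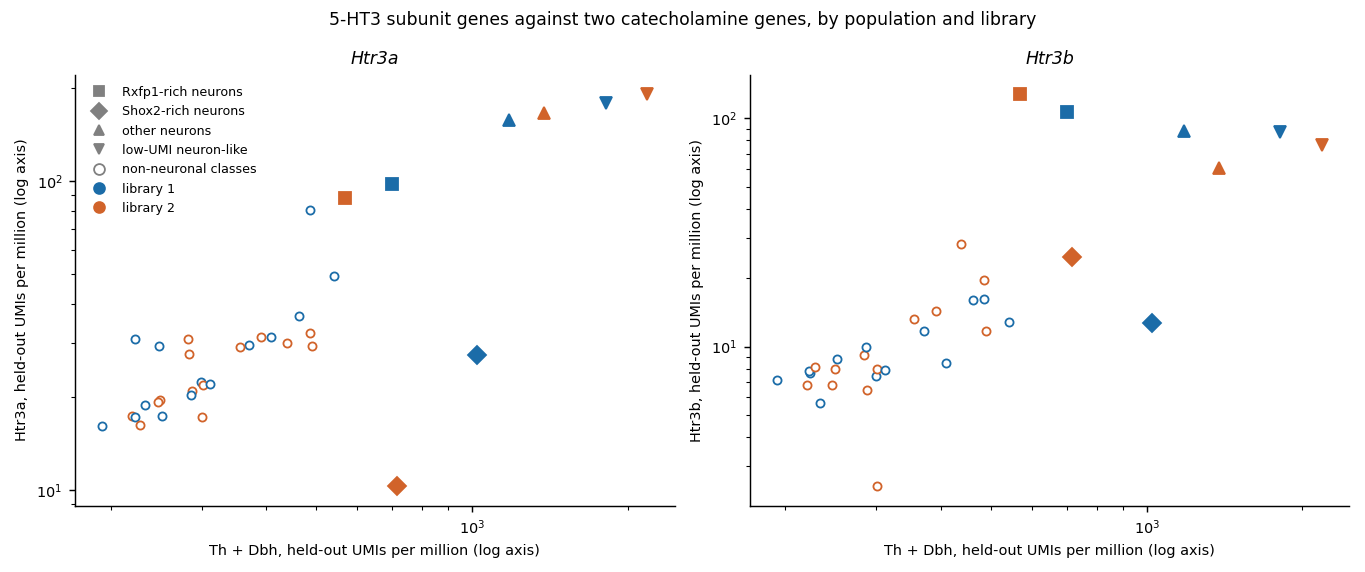
Levels of Htr3a and Htr3b against the summed level of Th and Dbh (both axes logarithmic, held-out CPM), 1 symbol per class and library. The more numerous non-neuronal classes lie along a common ratio, Rxfp1-rich neurons lie above it and Shox2-rich neurons below it for Htr3a; mast cells, with no Htr3b UMI, are not drawn for Htr3b.

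RNA of genes for 5-HT3 and nicotinic receptor chaperones was also higher in neurons. Ric3, a chaperone of 5-HT3 and nicotinic receptors, stood at 40.2 and 48.2 CPM in neurons against 8.92 and 8.84 CPM elsewhere (log2 fold change 2.13). Tmem35a, which encodes the nicotinic receptor chaperone NACHO, stood at 21.4 and 17 CPM against 7.12 and 6.31 CPM (1.34). Both passed as higher by edgeR, 2 of 2 on the chaperone list, whose median log2 fold change was 1.73 beside −0.18 for all genes tested. Tmem35a was also lower in Shox2-rich than in Rxfp1-rich neurons, at 2.11 and 6.17 against 23.4 and 17.2 CPM (log2 fold change −2.28, adjusted p = 0.0178 by edgeR). Its Shox2-rich values rest on very few UMIs. Ric3 did not pass there.

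P2rx2, the ATP-gated subunit best known from sensory and autonomic neurons, was rare. The whole files held 177 and 159 of its UMIs. Neurons held 8.04 and 5.35 CPM from 18 and 11 UMIs, against 1.37 and 1.33 CPM in all cells that were not neuron-like. These values did not overlap, and the edgeR log2 fold change was 2.13 (SE 0.387, adjusted p = 6.58e-05). Myelinating Schwann cells had as much, 6.41 and 8.00 CPM, and did not pass. Rxfp1-rich neurons held 8 and 4 UMIs and Shox2-rich neurons 3 and 2. P2rx3, with which P2rx2 forms heteromeric channels in sensory neurons, is on the list of other P2X channels, of which 3 of 4 were tested in neurons and 0 passed.

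P2rx4, an ATP-gated channel of endosomes and the cell surface, had its highest mean level in macrophages, where its libraries overlapped those of mast cells. P2rx7, the channel linked to inflammasome activation in macrophages, had its highest mean level there too, with overlap by intermediate glia. P2rx4 stood at 105 and 98.2 CPM in macrophages against 33.2 and 35.3 CPM in all other cells (edgeR log2 fold change 1.96, SE 0.0774, adjusted p = 4.04e-40). P2rx7 stood at 137 and 155 CPM against 52.5 and 55.2 CPM (1.82, SE 0.0701, adjusted p = 5.32e-41). In both libraries macrophages lay above all other cells for each channel. In macrophages 68.3% of tested genes passed, 31.9% as higher and 36.4% as lower. Of those that passed 46.7% were higher (28.0% when library totals replaced the normalization factors), and the 10 members divided into 3 higher, 4 lower and 3 that did not pass.

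P2rx7 was also high throughout the glia. Intermediate glia held 144 and 143 CPM, non-myelinating Schwann cells 128 and 125 CPM, myelinating Schwann cells 94.0 and 152 CPM and satellite glia 83.4 and 90.5 CPM. Intermediate glia and macrophages overlapped, as did non-myelinating and myelinating Schwann cells. The edgeR log2 fold changes against all other cells were 1.44, 1.22, 0.98 and 0.73 in that order of classes, and all passed. The share of all tested genes that passed was 65.1% in intermediate glia (30.5% as higher, 34.5% as lower), 54% in non-myelinating Schwann cells (24% and 30%), 18.6% in myelinating Schwann cells (6.57% and 12%) and 68.5% in satellite glia (31.4% and 37.1%). Among non-myelinating Schwann cells, a cluster with more Malat1 held more P2rx7 than one with less. The non-myelinating cluster with 99375 and 103178 CPM of Malat1 held 165 and 138 CPM of P2rx7, and the one with 59760 and 64915 CPM of Malat1 held 114 and 118 CPM. The part of RNA quality in this was not tested. Neurons held 9.82 and 6.33 CPM (−3.23), fibroblasts 11.3 and 12 CPM (−2.41), and no held-out P2rx7 UMI fell in a Shox2-rich neuron. P2rx4 in intermediate glia was at 63.5 and 71.0 CPM (0.85) and in satellite glia at 53.1 and 49.3 CPM (0.56). Both passed, while non-myelinating Schwann cells, at 41.3 and 47.4 CPM, did not pass. Mast cells, at 80.3 and 105 CPM, passed for P2rx4 on 11 and 17 UMIs (1.32, adjusted p = 0.00656 by edgeR).

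Dendritic cells passed for P2rx4 as higher (edgeR log2 fold change 0.59), although their 38.6 and 47.9 CPM overlapped the 40.9 and 41.4 CPM of other cells. With library totals in place of normalization factors the log2 fold change was 0.08 and did not pass, and with library 1 alone it was −0.08. In neurons P2rx4 was lower, at 34.8 and 25.8 CPM against 41.7 and 43.1 CPM (−0.66, SE 0.138, adjusted p = 0.000303 by edgeR), without overlap. By mean level neurons still ranked 7 among the 15 classes for P2rx4. P2rx4 was higher in 5 of the 16 comparisons, lower in 7 and did not pass in 4, and P2rx7 was higher in 5, lower in 8 and did not pass in 2, with 1 not tested.

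P2ry12, the ADP receptor of platelets and microglia, was highest in macrophages as well. It stood there at 155 and 177 CPM against 23.0 and 24.2 CPM in all other cells, with no overlap (edgeR log2 fold change 3.2, SE 0.0730, adjusted p = 2.46e-58). Macrophages held 44.0% and 45.7% of its held-out UMIs. All 3 macrophage clusters held the receptor, at 185 and 215, 87 and 96, and 125 and 174 CPM. In library 1, 39.9% of macrophages had a UMI of P2ry12, and 41.1% in library 2, against 1.1% and 1.2% of blood endothelial cells. Thinned to 1000 UMIs the shares were 12.2% and 14.3% in macrophages and 0.6% and 0.1% in endothelial cells. P2rx7 and P2ry12 occurred together in 197 of 1138 and 195 of 1115 macrophages, and P2rx4 and P2ry12 in 171 and 155.

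The glial classes other than myelinating Schwann cells held P2ry12 at nearly 1 level. Satellite glia stood at 51.4 and 55.6 CPM (edgeR log2 fold change 0.76), non-myelinating Schwann cells at 53.8 and 56.8 CPM (0.66) and intermediate glia at 51.1 and 54.8 CPM (0.57), and all 3 passed as higher. Their libraries overlapped from class to class. Myelinating Schwann cells were lower, at 12.8 and 20.0 CPM. All 7 of 7 macrophage markers were detected in satellite glia, at a summed 40.4 and 30.3 CPM against 13973 and 13894 CPM in macrophages. In non-myelinating Schwann cells and intermediate glia the summed level was 39.9 to 70.2 CPM, again with 7 of 7 markers detected. The part of macrophage RNA in the P2ry12 level of these glia was not tested. P2ry12 was lower in neurons (9.38 and 8.27 CPM, log2 fold change −2.37) and in fibroblasts (2.53 and 1.54 CPM, −4.25) by the same test. P2ry12 lies within Med12l on the opposite strand, with 9 bases exonic in both genes, and Med12l itself stood at 18 and 21 CPM in macrophages.

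P2ry1, a receptor for ADP that couples to calcium release, was highest in fibroblasts. Fibroblasts held 106 and 108 CPM against 4.79 and 3.92 CPM in all other cells (edgeR log2 fold change 4.94, SE 0.0780, adjusted p = 3.35e-105). They held 85.1% and 88.8% of the held-out P2ry1 UMIs. In fibroblasts 70.3% of tested genes passed, 34.1% as higher and 36.1% as lower, so that 48.6% of those that passed were higher (27.1% with library totals). Of the 10 members 3 were higher there, 6 lower and 1 did not pass. The next classes were lymphatic endothelial cells at 7.70 and 27.4 CPM, from few UMIs, and perineurial or epineurial cells at 11 and 12.4 CPM, and no other class overlapped fibroblasts. P2ry1 was lower in 13 of the 16 comparisons, in neurons at 2.23 and 1.95 CPM (−3.92). In each of these 13 the other cells held the fibroblasts, so the calls are not separate from the fibroblast result. A UMI of P2ry1 was found in 30.6% and 32.2% of fibroblasts and in 1.1% and 0.4% of macrophages, whose depth was close to that of fibroblasts. At 1000 UMIs the shares were 9.4% and 9.8% of fibroblasts and 0.2% and 0.3% of macrophages.

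Fibroblast clusters differed in P2ry1. The cluster with Bmp5, Dlk1 and Apod among its leading genes held 149 and 137 CPM, the one with Fat3 and Bmper 141 and 120 CPM, and the one with Smim41 and Cxcl1 105 and 116 CPM. The cluster led by C7, Pcolce2 and Inmt held 25.7 and 37.2 CPM. It stood below the other 3 clusters in both libraries, a description for which no test was run. P2ry1 and P2ry12 were found in largely separate classes: of 2273 and 2311 fibroblasts 696 and 743 held P2ry1, 21 and 15 held P2ry12, and 7 and 6 held both. An antisense gene, Gm37035, overlaps the first 992 bases of P2ry1, all exonic in both genes, and had 66 held-out UMIs in all.

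The promoter windows shown are those of the 3 receptors with their highest mean level in macrophages and of P2ry1, highest in fibroblasts. They set genes with the same leading class beside 1 with another. They are the 250 bases before the RefSeq start of each gene (GRCm38.p6), printed 5′ to 3′ on the gene's strand. Windows were at hand for 7 members. The motifs searched, on both strands, were TATAAA (the TATA box), TAATTA (a core of homeodomain sites), GAGGAA (a core of ETS factor sites) and GGGCGG (the GC box), and capitals mark GGGCGG or, for the other strand, its reverse complement. The windows are at chr3:59262986-59263235 (minus strand) for P2ry12, chr5:122643677-122643926 (plus strand) for the first of 2 windows of P2rx7, chr5:122707294-122707543 (plus strand) for P2rx4 and chr3:61002535-61002784 (plus strand) for P2ry1.
P2ry12: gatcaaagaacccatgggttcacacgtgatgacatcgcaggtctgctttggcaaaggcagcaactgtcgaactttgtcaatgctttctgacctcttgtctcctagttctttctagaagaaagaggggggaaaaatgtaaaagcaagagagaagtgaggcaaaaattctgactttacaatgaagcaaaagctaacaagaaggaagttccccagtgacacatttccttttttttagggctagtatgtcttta
P2rx7: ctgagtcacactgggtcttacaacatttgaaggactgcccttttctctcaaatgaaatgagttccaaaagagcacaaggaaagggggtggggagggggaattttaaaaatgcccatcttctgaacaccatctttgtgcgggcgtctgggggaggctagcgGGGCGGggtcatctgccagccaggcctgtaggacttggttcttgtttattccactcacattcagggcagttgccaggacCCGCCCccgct
P2rx4: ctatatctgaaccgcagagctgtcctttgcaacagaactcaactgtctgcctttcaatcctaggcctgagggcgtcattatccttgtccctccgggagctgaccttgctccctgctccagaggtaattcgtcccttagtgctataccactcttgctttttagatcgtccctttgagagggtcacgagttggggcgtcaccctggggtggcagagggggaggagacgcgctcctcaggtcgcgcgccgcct
P2ry1: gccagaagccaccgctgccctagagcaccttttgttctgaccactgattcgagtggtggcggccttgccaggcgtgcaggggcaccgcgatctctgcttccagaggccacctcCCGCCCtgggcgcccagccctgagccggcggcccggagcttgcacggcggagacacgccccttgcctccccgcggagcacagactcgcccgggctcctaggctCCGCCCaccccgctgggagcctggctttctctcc

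The GC box stood 90 and 11 bases before the start in P2rx7 and 137 and 34 bases before it in P2ry1. None of the 4 motifs was in the windows of P2ry12 and P2rx4. Of all 32851 RefSeq promoter windows of this length, 32.7% hold the GC box, 12.4% the TATA box, 4.84% the homeodomain core and 23.3% the ETS core. The share of G and C was 41.6% in P2ry12, 53.6% in P2rx7, 57.2% in P2rx4 and 70.8% in P2ry1, against a median of 52.4%. The windows of the 3 receptors highest in macrophages thus had no searched motif in common. These are matches of letters only.

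**Figure D4:**
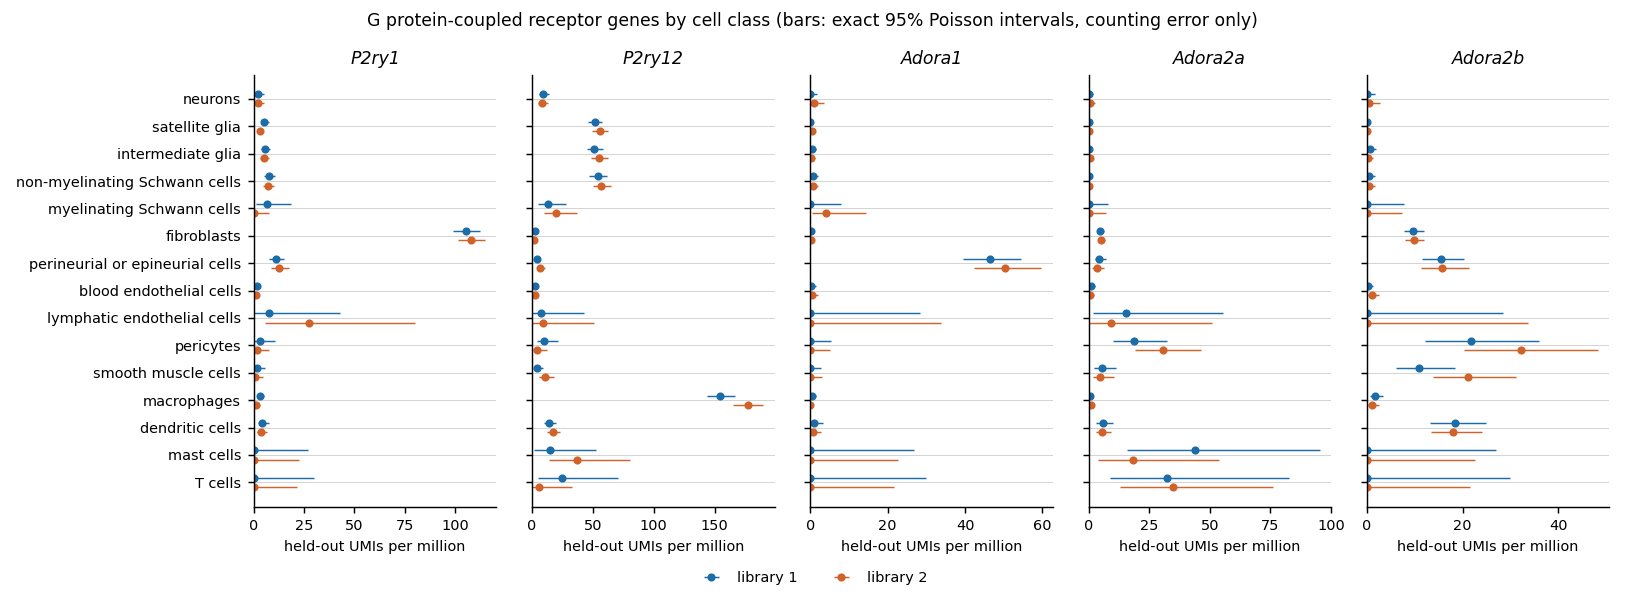
Levels of the G-protein-coupled receptors P2ry1, P2ry12, Adora1, Adora2a and Adora2b (horizontal axis, held-out CPM) in each cell class (vertical axis), 1 symbol per library with its exact counting interval. P2ry1 is highest in fibroblasts, P2ry12 in macrophages with the glial classes next, Adora1 in perineurial or epineurial cells, and Adora2a and Adora2b in several classes at lower levels.

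Reads counted for Adora1, the inhibitory A1 adenosine receptor, came nearly all from perineurial or epineurial cells, which sheathe the ganglion and its nerves. These cells held 46.6 and 50.4 CPM from 156 and 134 UMIs, against 0.294 and 0.390 CPM in all other cells. No other class exceeded 4 CPM. The edgeR log2 fold change was 7.25 (SE 0.220, adjusted p = 1.36e-229), and the class held 92.9% and 89.3% of the held-out Adora1 UMIs. In this comparison 55% of tested genes passed, 25.2% as higher and 29.9% as lower. A UMI was found in 16.8% and 16.2% of these cells and in 0.2% and 0.2% of non-myelinating Schwann cells. At 1000 UMIs the shares were 3.4% and 4.6% against 0.1% and 0.1%. In neurons, where the A1 receptor is known to restrain transmitter release, 0 and 2 held-out UMIs were counted. This was lower by edgeR (adjusted p = 0.000788) than in the other cells together, most of whose Adora1 UMIs lay in perineurial or epineurial cells. By mean level neurons ranked 5 among the 15 classes, at 0.487 CPM, above macrophages (0.216 CPM) and fibroblasts (0.213 CPM), so that neurons were not lower than most classes. The limit that 0 UMIs in library 1 allows is 1.34 CPM.

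A second gene covers the end of Adora1 from which these reads come. Mybph (chr1:134193448-134201232, plus strand), which encodes a myosin-binding protein, overlaps the last 2010 bases of Adora1 on the opposite strand, and 1162 of those bases are exonic in both genes. Mybph itself stood at 63.0 and 65.9 CPM in perineurial or epineurial cells and at 10.0 CPM or less in every other class, with its highest value elsewhere in myelinating Schwann cells. Of 737 and 642 such cells 124 and 104 held a UMI of Adora1, 135 and 111 one of Mybph, and 42 and 33 held both. The sources used here do not say whether counting used the strand. Without that, reads of Adora1 and of Mybph cannot be told apart, and the value of Adora1 in this class is uncertain.

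Adora2a and Adora2b, the stimulatory adenosine receptors, shared pericytes, fibroblasts and dendritic cells. Adora2a in pericytes, the contractile cells around capillaries, stood at 18.9 and 30.8 CPM from 13 and 22 UMIs, against 2.26 and 2.33 CPM elsewhere (edgeR log2 fold change 3.42, SE 0.399, adjusted p = 3.09e-05). Adora2b in pericytes stood at 21.9 and 32.2 CPM against 4.84 and 5.24 CPM (2.41, SE 0.324, adjusted p = 0.000106). Pericytes did not overlap the pool of all other cells for either receptor. Among single classes, T cells and mast cells had higher mean levels of Adora2a, and the libraries of mast cells overlapped those of pericytes. For Adora2b pericytes had the highest mean level, but their counting intervals overlapped those of dendritic cells, the next class. Of 273 and 289 pericytes 12 and 21 held a UMI of Adora2a, 14 and 21 one of Adora2b, and 0 and 2 held both. In pericytes 23.3% of tested genes passed, 8.92% as higher and 14.4% as lower. Fibroblasts were higher for both at lower levels, 4.73 and 5.03 CPM of Adora2a (1.58) and 9.69 and 9.86 CPM of Adora2b (1.54). They held 38.7% and 40.2% of the Adora2a UMIs and 39.1% and 38.7% of the Adora2b UMIs, as the most numerous class.

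Each receptor also had classes of its own among those that passed. Adora2a was higher in T cells, at 32.3 and 35.0 CPM from 10 UMIs in all (edgeR log2 fold change 3.59), and in mast cells, at 43.8 and 18.4 CPM from 9 (3.69). In T cells 17% of tested genes passed (6.11% as higher, 10.9% as lower), and in mast cells 11.4% (5% and 6.39%). Adora2b was higher in perineurial or epineurial cells, at 15.5 and 15.8 CPM (1.89), and in smooth muscle cells, at 11 and 21.2 CPM (1.86), where 42.1% of tested genes passed (18.2% as higher, 23.9% as lower). In dendritic cells Adora2a stood at 5.83 and 5.65 CPM (1.72) and Adora2b at 18.4 and 18.1 CPM (2.48), both higher. There 63.2% of tested genes passed, 29.4% as higher and 33.8% as lower, so that 46.5% of those that passed were higher (27.0% with library totals). Within the dendritic class Adora2b lay in the cluster led by Cd209a and Ear2, at 29.8 and 29.0 CPM. The cluster with the conventional dendritic marker Xcr1 held 1.13 and 1.87 CPM, from 1 and 2 UMIs.

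Neurons and glia held almost none of the stimulatory adenosine receptors. Neurons had 1 held-out UMI of each in all, both in library 2. Satellite glia had none in 2338 cells, at least 11.3-fold lower than other cells for Adora2a and at least 23.0-fold lower for Adora2b, with 3 UMIs over both libraries as the floor. In satellite glia as a whole 3 members were higher, P2rx4, P2rx7 and P2ry12, and the other 7 were lower. Of all tested genes 31.4% were higher there and 37.1% lower. Of the called genes 45.9% were higher (32.7% with library totals).

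Blood endothelial cells had no member higher, 8 lower and 2 that did not pass, where 63.7% of tested genes passed, 29.9% as higher and 33.8% as lower. Of the genes that passed 46.9% were higher (35.0% with library totals). Htr3a (edgeR adjusted p = 0.0588) and P2rx2 (0.563) were the 2 that did not pass. The endothelium held Htr2a, the serotonin receptor of vessels and platelets, at 22.0 and 22.5 CPM against 0 and 0.201 CPM elsewhere. It also held Entpd1, the enzyme that removes ATP and ADP from plasma, at 629 and 613 CPM against 67.1 and 74.4 CPM (log2 fold change 3.35 by edgeR). Lymphatic endothelial cells, of which there were 30 and 28, had 10.2% of tested genes called, 3.82% as higher and 6.37% as lower, and no member higher.

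**Figure D5:**
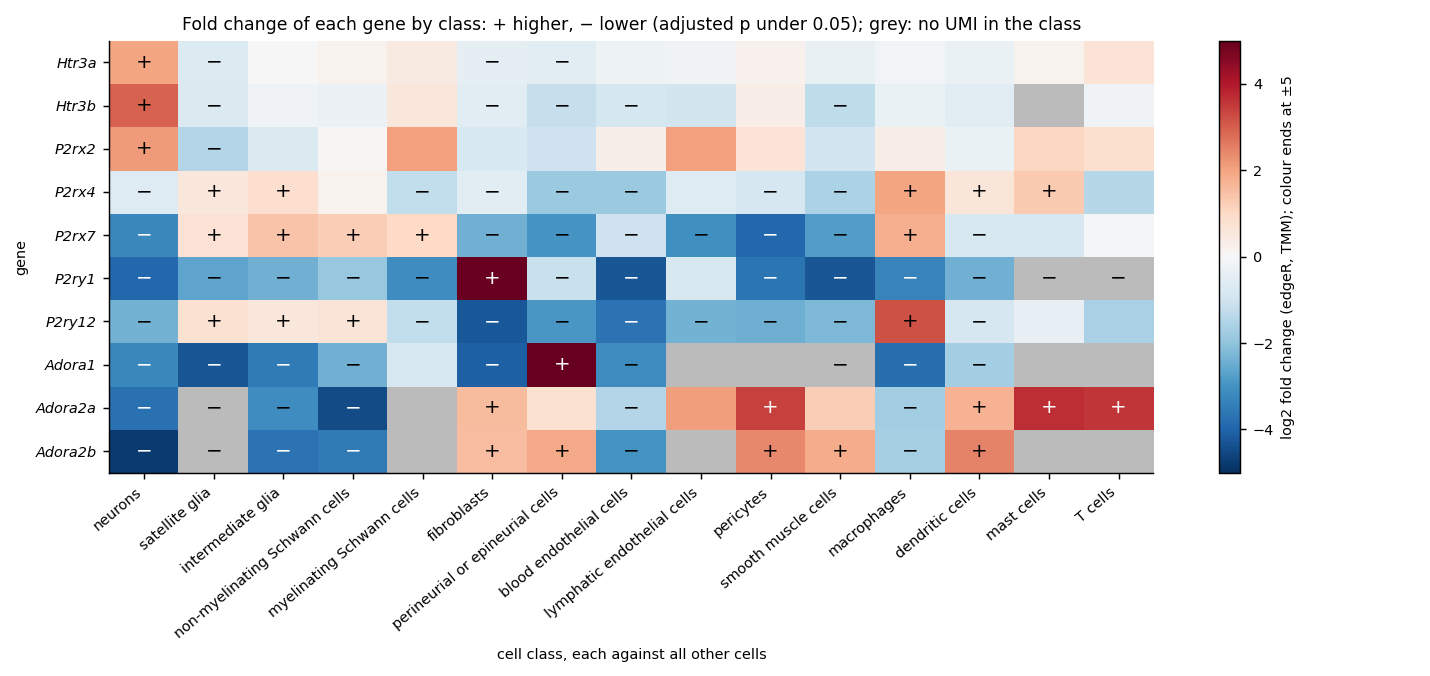
Log2 fold changes of the 10 members (vertical axis) in each cell class against all other cells (horizontal axis), as fitted by edgeR on held-out UMIs, with calls at an adjusted p under 0.05 marked and colours ending at 5 in either direction. Grey marks a member with no UMI in the class. For neurons the other cells left out the neuron-like droplets set aside. Htr3a, Htr3b and P2rx2 are higher in neurons, P2rx4, P2rx7 and P2ry12 in macrophages and satellite and intermediate glia, P2ry1 in fibroblasts and Adora1 in perineurial or epineurial cells.

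In neurons all 10 members passed, 3 as higher and 7 as lower, where 70.6% of all tested genes passed, 31.2% as higher and 39.4% as lower. The members' median log2 fold change was −2.80 beside −0.18 over all genes. Each lower call was against all other cells together, which held the class where that gene was highest. By mean level among the 15 classes, neurons ranked 5 for Adora1, 7 for P2rx4, 9 for P2ry12 and 10 for Adora2b. They ranked 11 for P2ry1 and 12 for P2rx7 and Adora2a. A lower call thus does not by itself place neurons below most classes. The lists of related genes divided as follows. Of 12 other serotonin receptors 6 were tested, and 3 were higher, 2 lower and 1 did not pass. Htr2b stood at 8.04 and 8.76 CPM in neurons against 0.856 and 0.933 CPM (log2 fold change 3.04), and Htr1f, an inhibitory receptor, at 36.2 and 43.8 CPM against 12.8 and 12.4 CPM (1.48). All 5 tested of 6 other P2Y receptors were lower. Of 8 genes for serotonin synthesis, transport and breakdown 5 were higher and 2 did not pass. These genes serve noradrenaline too: Slc18a1 (129 and 181 CPM) and Slc18a2 (752 and 700 CPM) load monoamines into vesicles, and Ddc (517 and 529 CPM) is the shared decarboxylase. Tph1, the enzyme that makes serotonin outside the brain, did not pass, nor did the serotonin transporter gene Slc6a4.

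Genes that release ATP or break it down differed by class. Entpd3, a surface enzyme that removes ATP, stood at 121 and 117 CPM in neurons against 5.38 and 5.48 CPM (edgeR log2 fold change 4.27), and was the 1 of 7 tested genes of nucleotide breakdown that was higher there, with 6 lower. Between neuron types Entpd3 was lower in Shox2-rich neurons (−1.67), as the 5-HT3 subunits were. The channel gene Panx2 stood at 18.3 and 16.1 CPM in neurons against 1.61 and 1.35 CPM (3.35). Fibroblasts, where P2ry1 was highest, were higher in 4 of 7 tested breakdown genes and lower in the other 3, where 34.1% of all tested genes were higher and 36.1% lower (median log2 fold change 1.63 beside −0.03 over all genes). Among the higher ones were Nt5e, which makes adenosine from AMP, at 24.9 and 24.9 CPM (3.51), and Entpd2, which turns ATP to ADP, at 455 and 447 CPM (2.32). Macrophages were higher in 2 of 5 tested other P2Y receptors and lower in the other 3, where 31.9% of all tested genes were higher and 36.4% lower. The higher ones were P2ry6, a UDP receptor, at 149 and 167 CPM (5.14), and P2ry13, an ADP receptor, at 42.2 and 44.0 CPM (7.76). Perineurial or epineurial cells were higher in Slc29a1, an adenosine transporter, at 195 and 199 CPM (1.6), and in Nt5e, at 15.5 and 16.9 CPM (1.36).

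The genes most alike in pattern were found by Pearson's r of log2(CPM + 1) over 30 sums, 15 classes in each of 2 libraries, which share libraries and depth, among 15670 genes. Htr3a was most like Slc10a4 (r = 0.93), Rab3c (0.91) and Cplx2 (0.91), and Htr3b was most like Cgref1, Elavl3 and Dync1h1 (0.89 each). P2rx7 was most like Zswim6 (0.87), P2ry1 like Zfp469 (0.82), P2rx2 like Memo1 (0.81), Adora2a like Inpp4b (0.83) and Adora2b like Wdr86 (0.84). Adora1 was most like Ankdd1b (0.93), Ocln (0.93) and Folr1 (0.92). P2rx4 had Fam49a (0.84), Mknk1 (0.80) and its fellow member P2ry12 (0.78) closest, and P2ry12 itself was closest to Tab2 (0.80). Between neighbouring genes r was 0.58 for Htr3a and Htr3b and 0.45 for P2rx4 and P2rx7, and it was −0.26 for P2ry1 and P2ry12, which share a chromosome.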

How the data were processed

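Single-cell RNA was measured in 2 libraries of 1 group by 10x 3′ v3.1 chemistry, per the labels. The authors deposited UMI counts per gene and barcode, made with Cell Ranger 6.1.2 on mm10 per the submitters' processing notes; the sources used here do not give the annotation release, the intron and strand settings or the cell filter, and each deposited barcode held at least 1501 UMIs. No sequence table was used other than RefSeq promoters.

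Doublets (561 and 629) were removed with Scrublet in scanpy 1.11.5. UMIs were split with probability 0.5, clusters were made at Leiden resolution 1 (0.8 within neurons) and named from marker lists, with naming thresholds set after seeing the clusters. Clusters of neuron-like droplets with few UMIs (415 and 393 cells), or led by other markers (91 and 74), were set aside from neurons. In the neuron comparison they were on neither side, and in the comparisons of the other classes they count among the other cells. Unnamed cells (64 and 61) count among the other cells in all of these. edgeR 4.0.16 quasi-likelihood tests (TMM factors, filterByExpr, Benjamini-Hochberg adjusted p under 0.05, 2-sided) compared 4 sums per comparison with the library as a block, which pairs classes by their common library and leaves 1 residual degree of freedom before moderation. In data simulated for the neuron comparison 43% of 2-fold and 88% of 4-fold changes were called, with 7 false calls among 17530 genes; for the 2 neuron types it was 61% and 97%, with 3 among 8309. The simulation gave every gene the same fixed dispersion and changed only 100 genes of each fold size. In the real neuron comparison 70.6% of tested genes passed, so these rates do not carry over to the reported tests. DESeq2 1.42.0 served as an alternative.

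The members, lists and markers were chosen with earlier results of these data known. All members are described; from related lists the 3 genes of largest change in each direction, any gene of a list of at most 6, and the 3 genes most alike in pattern may be named.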

Additional observations from a re-analysis of the deposited data

How the results depend on the processing

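The alternatives were DESeq2, its size factors in edgeR, no filter on low counts, no replicate block, all UMIs, doublets put back, cells thinned to 1000 UMIs, other Leiden resolutions (0.6 and 1.5), other definitions of neurons and each library alone; library totals in place of TMM factors were added after seeing the data. Of 153 member results, the direction and side of the threshold stayed the same for 121 under DESeq2, where 20 became weaker, and for 125 after thinning, where 25 did. With library totals it was 144, and the same 10 neuron results kept direction and side of the threshold under both other neuron definitions. Without the replicate block, in which the library pairs the classes, 148 kept their call and 5 became stronger. Of the counts of members called, that between neuron types (2 as reported) was 0 after thinning, dendritic cells (7) gave 3, satellite glia (10) gave 6, mast cells (3) gave 0 after thinning and 1 under DESeq2, T cells (2) gave 0 and 1, and myelinating Schwann cells (4) gave 2 under DESeq2. Lymphatic endothelial cells (2) gave 0 under DESeq2 and 1 with its size factors, without the filter, after thinning and with library totals. Thinning removes UMIs by construction; the cause of the other changes was not tested. With each library alone, as a ratio of CPM with no normalization factors and no test, 94 results moved by more than the spread between libraries without replicate 1 and 106 without replicate 2. The results that reversed were 2: P2rx4 in dendritic cells had a log2 ratio of −0.0829 without replicate 2 (0.2044 without replicate 1), and Htr3a in intermediate glia was −0.54 at resolution 0.6 (0.03 and not passed as reported).

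Library totals moved the median log2 fold change of all genes by −0.51 in dendritic cells, −0.39 in macrophages, −0.33 in fibroblasts and 0.18 in neurons. In smooth muscle cells 43.3% of called genes were higher, and 30.4% with library totals. With them Htr3a was also lower in blood endothelial, dendritic and smooth muscle cells and macrophages, Htr3b in dendritic cells and macrophages and P2rx2 in fibroblasts, while P2rx4 in dendritic cells and P2ry12 in lymphatic endothelial cells did not pass. In classes of under 100 cells per library many levels rest on few UMIs, and with 2 libraries no outlying library can be told.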

Other observations

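Cells that belonged to no class of the comparisons held some of the receptors. The 91 and 74 neuron-like cells led by markers of other classes had 155 and 199 CPM of Htr3a and 92.8 and 63.4 CPM of Htr3b, with 8.74 and 9.19 UMIs of Htr3a per 100 of Th and Dbh. Their P2rx2 came to 2 and 9 UMIs, 3.57 and 19.7 CPM. The 64 and 61 unnamed cells had 82.3 and 100.5 CPM of P2rx7, 56.1 and 42.5 CPM of P2ry12 and 44.9 and 73.4 CPM of P2rx4, and no UMI of Adora1, Adora2a or Adora2b.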
